A study of Mus musculus with 13 samples.

Results

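Small RNAs were compared between cauda epididymal sperm of acrylamide-exposed Swiss mice and sperm of vehicle-injected mice. The exposed males had been injected intraperitoneally with acrylamide, an electrophile that people take in mainly with fried and baked foods, at 25 mg/kg per day on 5 days, and their sperm were collected 3 days after the last injection (AAE, epididymal exposure). Control males of the same strain had received PBS alone. All libraries were small RNA libraries from purified sperm, 2 per group, and they were chosen by these labels as 4 of the 13 libraries of the series, the other 9 being embryo RNA-seq. The labels do not give the number of males behind a library or say whether males were pooled. No library from sperm exposed as spermatocytes was analysed here. The 4 libraries held counts for 69575 RNA entries of 9 types, and 21008 entries passed the filter on low counts.

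Sperm leave the testis transcriptionally silent and change their small RNA content while they pass through the epididymis, in part by taking up vesicles shed by the epididymal epithelium. Mature sperm carry mainly fragments of tRNA and rRNA, with piRNAs left from spermatogenesis, where they guide the silencing of transposons, and with miRNAs. A miRNA lowers the output of mRNAs that pair with its seed, so miRNAs with the same seed can act on the same targets. Small nucleolar RNAs guide chemical modification of rRNA, and small nuclear RNAs form the spliceosome.

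The miRNAs on which the results turn are shown 5′ to 3′ with the seed, bases 2 to 8, in capitals, to show which members share one. The sequences are those of RefSeq for GRCm38.p6. Of the 375 miRNA entries tested, 252 matched a RefSeq mature name, and they held 79.2% of the miRNA counts. The first 3 share a seed, as do both miR-10 members, the first 3 members of the miR-200 family and its last 2. The arms of the miR-30a, miR-30e and miR-871 hairpins are given because the balance between arms is described below.
miR-148a-3p: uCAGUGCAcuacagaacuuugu
miR-148b-3p: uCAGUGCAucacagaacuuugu
miR-152-3p: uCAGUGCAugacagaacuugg
miR-10a-5p: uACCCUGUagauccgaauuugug
miR-10b-5p: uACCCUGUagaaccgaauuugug
miR-200b-3p: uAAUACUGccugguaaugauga
miR-200c-3p: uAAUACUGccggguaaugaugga
miR-429-3p: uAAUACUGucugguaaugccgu
miR-200a-3p: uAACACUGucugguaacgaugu
miR-141-3p: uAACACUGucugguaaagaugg
miR-881-3p: aACUGUGUcuuuucugaauaga
miR-21a-5p: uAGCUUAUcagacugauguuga
miR-30a-5p: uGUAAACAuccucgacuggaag
miR-30a-3p: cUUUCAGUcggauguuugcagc
miR-30e-5p: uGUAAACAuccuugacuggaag
miR-30e-3p: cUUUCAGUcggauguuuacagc
miR-871-5p: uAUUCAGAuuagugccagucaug
miR-871-3p: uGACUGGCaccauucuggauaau

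In GRCm38.p6, miR-148a-3p lies on the minus strand at chr6:51269829-51269850 and miR-881-3p on the minus strand at chrX:66801954-66801975. The arms of miR-30a lie on the plus strand at chr1:23272274-23272295 and chr1:23272315-23272336, and those of miR-871 on the minus strand at chrX:66810472-66810494 and chrX:66810438-66810460. The miR-200b-3p, miR-200a-3p and miR-429-3p genes form a cluster on chromosome 4, and miR-200c-3p and miR-141-3p lie together on chromosome 6.

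The AAE libraries held 15356820 and 12810223 counts, and the control libraries 14571528 and 13445938. AAE replicate 2 stood apart from the other libraries: it had counts for 53188 piRNA entries, against 47059 in AAE replicate 1 and 48307 and 47648 in control, and 1644 entries made up 90% of its counts, against 453 in AAE replicate 1 and 532 and 476 in control. Its TMM factor, which scales for composition, was 1.64, against 0.725 in AAE replicate 1 and 0.932 and 0.904 in control. Across 20550 entries the Spearman correlation ran from 0.887 to 0.898 over all 6 pairs of libraries, and the 0.892 of the AAE pair lay inside the range of the pairs of 1 AAE and 1 control library. Among 368 miRNAs the AAE pair correlated at 0.986 and the control pair at 0.953, with 0.966 to 0.972 between groups. The label of sperm was checked with miRNAs. Germ line miRNAs made up 14.2% and 16.2% of miRNA counts in AAE and 16.7% and 13.1% in control. Of the red blood cell markers listed, the 1 with a named entry, miR-486a-5p, had 12 and 9 counts in AAE and 8 and 11 in control. No named entry matched the short lists of striated muscle (miR-1a, miR-133a, miR-206) and liver (miR-122) markers, but miR-499-5p, a striated muscle miRNA outside the list and named here after its values were seen, had 168 and 171 counts in AAE and 202 and 97 in control. Smooth muscle and stroma markers took 0.456% and 0.547% of miRNA counts in AAE and 0.568% and 0.467% in control. Endothelium markers had 130 and 172 counts in AAE and 141 and 96 in control. Leukocyte markers (5 of 6 entries tested) together took 0.158% and 0.196% of miRNA counts in AAE against 0.151% and 0.128% in control. With miRNAs scaled to each other 2 of these 5 were positive, with a median log2 fold change of -0.10, and miR-146a-5p, which epithelia also express, was at 0.49. Fewer cells of a type and less RNA per cell cannot be told apart in such libraries.

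**Figure D1:**
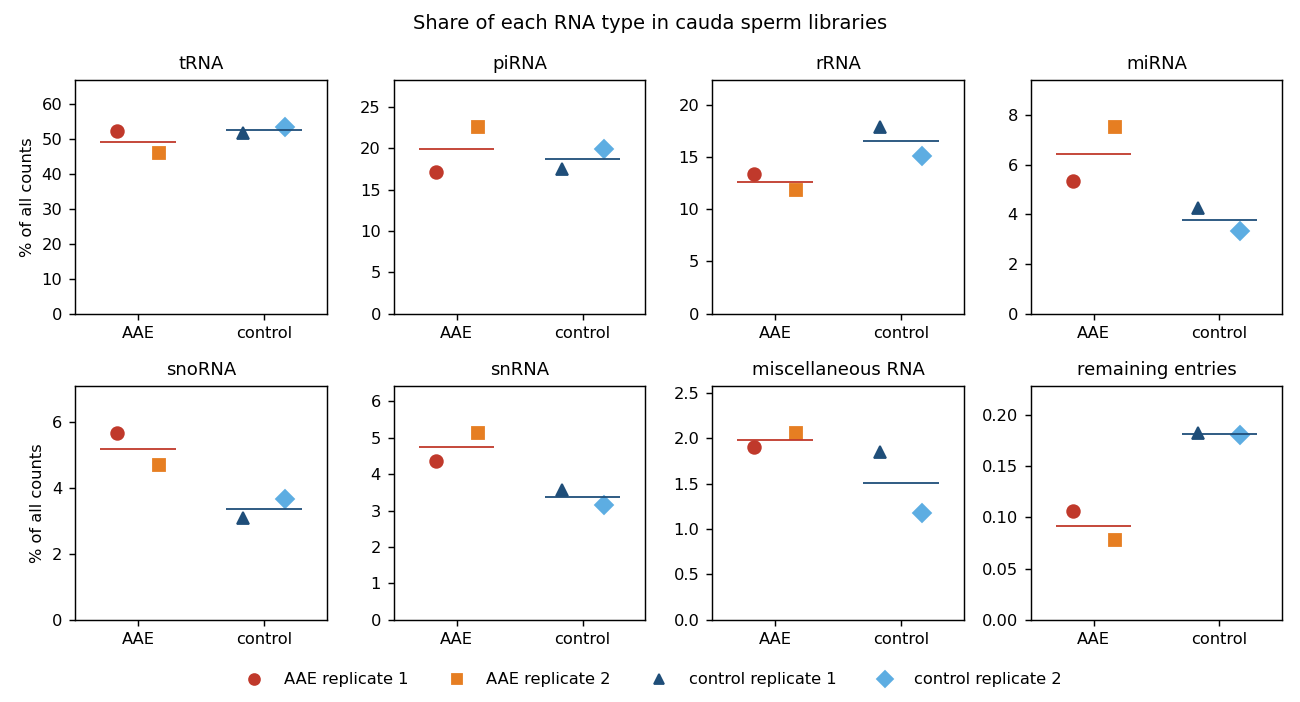
Share of all counts, in percent, taken by each RNA type in each library, with AAE left of control; points are libraries and lines the group means. The miRNA, snoRNA, snRNA and miscellaneous RNA points of AAE lie above those of control. Those of rRNA and of the remaining entries lie below, and tRNA and piRNA points overlap.

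The first comparison asked which RNA types took more of the library in exposed sperm. Shares of miRNA, snoRNA, snRNA and miscellaneous RNA were higher in both AAE libraries than in both control libraries. The shares of rRNA and of the small remaining type were lower. The miRNA share was 5.35% and 7.53% in AAE, against 4.23% and 3.34% in control. For snoRNA it was 5.69% and 4.71% against 3.10% and 3.66%, and for snRNA 4.35% and 5.14% against 3.57% and 3.16%. Miscellaneous RNA took 1.90% and 2.06% against 1.85% and 1.17%. The rRNA share was 13.3% and 11.8% in AAE and 17.9% and 15.1% in control, and that of the remaining type 0.106% and 0.0781% against 0.183% and 0.180%. Fragments of tRNA, the largest type, took 52.1% and 46.0% in AAE and 51.7% and 53.5% in control, so the groups overlapped. With 2 libraries per group the two-sided exact permutation p cannot go below 0.333, which is the value for every type whose groups did not overlap (0.5 after adjustment over 9 types). With rRNA entries taken out of the total the miRNA shares were 6.17% and 8.54% in AAE, against 5.16% and 3.93% in control. The miscellaneous RNA shares then overlapped, at 2.19% and 2.34% against 2.25% and 1.38%. Reads counted in several entries can weigh on these shares. With 1 entry kept of each set whose counts lay within 5% in every library, the snRNA shares were 2.63% and 3.04% in AAE and 2.11% and 1.93% in control, and the miRNA shares were 6.81% and 9.40% against 5.34% and 4.31%.

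The next question was how far differences between groups exceeded those between libraries of 1 group. For this each library was scaled to the counts of the RNA type, and entries with a mean of 50 counts or more were used. The median absolute log2 difference between the AAE mean and the control mean was 0.24 for miRNAs, while AAE replicates 1 and 2 differed by 0.17 and control replicates 1 and 2 by 0.38. For tRNA the group difference was 0.23 and the control libraries differed by 0.52. In piRNAs it was 0.21, while the AAE libraries differed by 0.80 and the control libraries by 0.27. The group difference exceeded both differences between replicates for 59 of 223 miRNAs (26.5%), 86 of 381 tRNA entries (22.6%) and 158 of 4506 piRNAs (3.51%). It did so for 66 of 330 snRNAs (20%), 46 of 276 rRNAs (16.7%), 46 of 324 snoRNAs (14.2%) and 7 of 133 miscellaneous RNAs (5.26%). The group means average 2 libraries, whereas replicate differences are between single libraries. The share expected with no group difference was not worked out, so these shares are not a test of exposure.

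Among miRNAs most entries had positive log2 fold changes, AAE over control, 321 of 375 tested, and 0 passed the test. The most abundant were miR-148a-3p, which is rich in epididymal epithelium, miR-881-3p of the X-linked clusters transcribed in spermatogenic cells, and miR-34c-5p, a miRNA of late male germ cells. Fold changes are on the log2 scale with a standard error (SE). It was worked out from the test, as the absolute fold change over the square root of the F statistic. The count of miR-148a-3p was 163186 and 174693 in AAE and 66659 and 86886 in control, so the groups did not overlap. The log2 fold change was 0.93 (SE 0.99, edgeR quasi-likelihood adjusted p = 0.965). The count of miR-881-3p was 156781 and 150531 in AAE and 161578 and 79670 in control, with control replicate 1 the highest and control replicate 2 the lowest. For miR-34c-5p it was 60060 and 84482 against 49211 and 24619, and the log2 fold change was 0.74 (SE 0.91). miR-21a-5p, which is induced in many injured tissues, had 39156 and 51397 counts in AAE and 24822 and 20582 in control, a log2 fold change of 0.76 (SE 0.84). After TMM scaling both AAE libraries lay above both control libraries for 122 of the 375 miRNAs tested (32.5%) and below them for 7 (1.87%), against 16.7% and 17.9% of all 21008 entries. By library totals these numbers were 217 and 2, against 13.3% and 2.73% of all entries. The median log2 fold change of the 375 was 0.39, against 0.00 for all entries, but it was -0.05 with miRNAs scaled to each other, where 162 were positive. It was 0.66 by library totals, a scaling that moved the median of all entries to 0.35. With each library left out the median ran from -0.0038 without AAE replicate 1 to 0.70 without AAE replicate 2.

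Grouped by seed, the 252 miRNAs matched to RefSeq fell into 200 seeds, of which 43 had 1000 counts or more on average. Entries without a match, miR-34c-5p among them, are not in these sums, so a seed can lack members. As CPM, counts scaled to a common library total, 28 of the 43 (65.1%) were higher in both AAE libraries and 0 (0%) lower. As a share of miRNA counts, 4 (9.3%) were higher and 11 (25.6%) lower. The seed CAGUGCA of miR-148a-3p, miR-148b-3p and miR-152-3p had 170222 and 183147 counts in AAE and 71536 and 90466 in control, a CPM ratio of 2.18. That ratio was 2.22 for the miR-10 seed ACCCUGU and 2.24 for the seed AACACUG of miR-200a-3p and miR-141-3p. It was 1.70 for the 8 matched let-7 members, which restrain growth genes, and 1.29 for miR-881-3p, whose groups overlapped. Of the seeds with a higher share, AACACUG took 0.456% and 0.473% of miRNA counts in AAE and 0.304% and 0.415% in control. The seed GUAAACA of miR-30a-5p, miR-30c-5p and miR-30e-5p took 1.63% and 1.78% against 1.38% and 1.39%. That sum lacks the unmatched family member miR-30d-5p, which had 5030 and 6238 counts in AAE and 4518 and 3623 in control. The share of miR-21a-5p was 4.77% and 5.34% against 4.03% and 4.59%. The fourth was the seed of miR-146a-5p and miR-146b-5p, which dampen innate immune signalling, at 0.319% and 0.271% against 0.211% and 0.245%. miR-146a-5p is also a leukocyte marker of the list above, and the part of such cells in its values was not tested. The lower shares included the seed AUUGCAC of miR-25-3p and miR-92a-3p (2.16% and 1.99% in AAE, 2.89% and 2.23% in control) and miR-184-3p (0.254% and 0.253% against 0.307% and 0.334%).

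**Figure D2:**
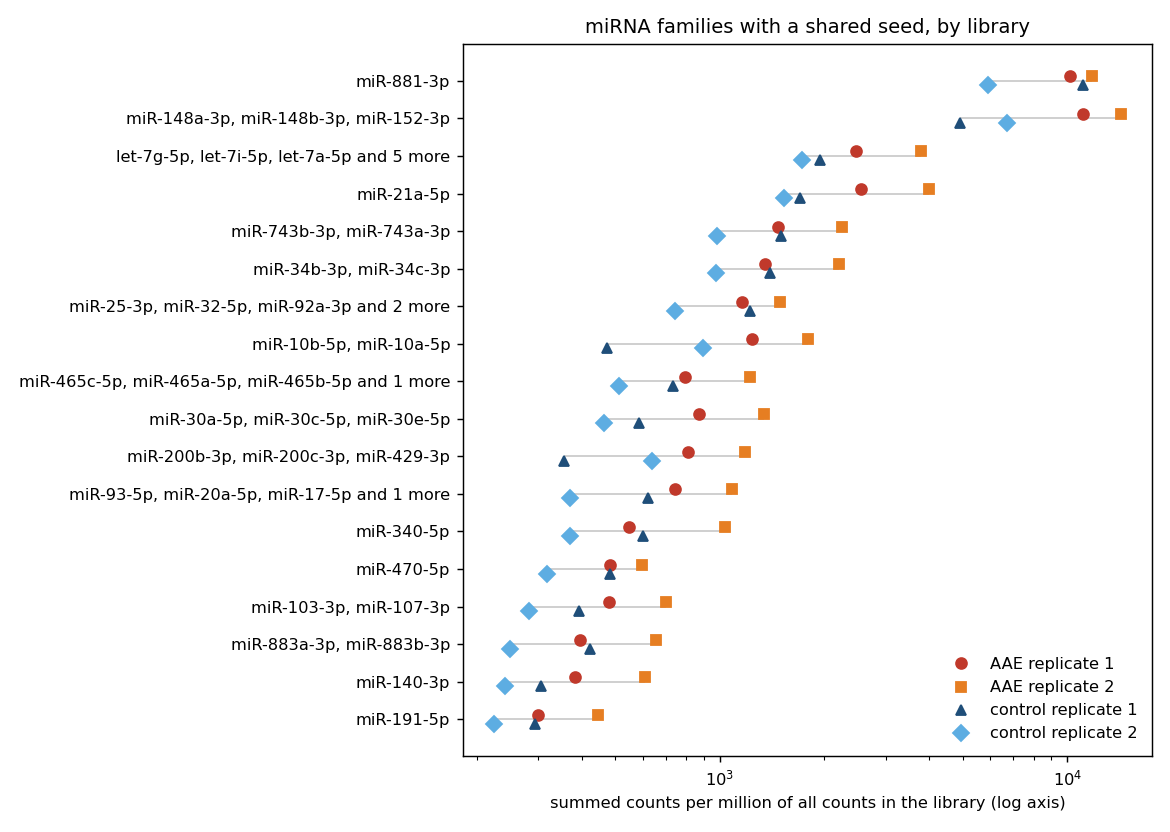
Summed CPM, counts scaled to a common library total (log axis), for the 18 seeds with the highest mean counts among matched miRNAs. Each seed is named by its matched members. Colours and shapes mark the 4 libraries. AAE replicate 2 lies highest in each row, and AAE replicate 1 lies above both controls for the miR-148a, let-7, miR-21a, miR-10 and miR-30 rows but not for miR-881-3p.

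The control libraries differed from each other in the makeup of their miRNAs. Control replicate 1 had more X-linked spermatogenic miRNAs and fewer epididymis-abundant ones than the other 3 libraries. The X-linked list took 27.8% and 24.7% of miRNA counts in AAE and 37.2% and 26.9% in control, and the epididymis-abundant list 30.5% and 29.6% in AAE and 19.9% and 30.8% in control. The ratio of the second to the first was 1.10 and 1.20 in AAE, and 0.533 and 1.15 in control, so both AAE libraries lay close to control replicate 2. The miR-200 family with miR-205, miRNAs of epithelia, was also lowest in control replicate 1, at 3.40% and 3.59% of miRNA counts in AAE and 1.82% and 4.25% in control. All 11 of its entries had positive log2 fold changes, with a median of 0.80, and all 11 stayed positive with miRNAs scaled to each other (median 0.29). Their highest member that can be shown, miR-200b-3p, had 6054 and 7916 counts against 2695 and 3956. miR-205-5p had 73 and 68 counts in AAE and 24 and 25 in control, with a log2 fold change of 1.30 (SE 0.36, adjusted p = 0.943 in edgeR's test). Among miRNAs with 50 or more counts the smallest unadjusted p-values belonged to an entry named miRNA069, with 144 and 154 counts against 61 and 54, to miR-18, of the growth-promoting miR-17-92 cluster, with 128 and 157 against 69 and 54, and to miR-324-5p with 78 and 129 against 37 and 51. Their log2 fold changes were 1.16 (SE 0.28), 0.98 (SE 0.26) and 0.92 (SE 0.25), and none passed after adjustment. The more abundant entry miR-18a-5p had 226 and 285 counts in AAE and 216 and 112 in control. Its log2 fold change was 0.42, and -0.0094 with miRNAs scaled to each other. miR-669a-3p, of the Sfmbt2 intron cluster, had 120 and 208 counts against 78 and 74, and 19 of the 21 tested entries of that cluster were positive. miRNAs that other studies reported in sperm of stressed male mice, among them miR-30 and miR-29c members, took 3.44% and 3.64% of miRNA counts in AAE and 2.92% and 2.95% in control. Of its 11 entries 10 were positive after TMM scaling, but 4 with miRNAs scaled to each other, where the median was -0.11. Of the matched miRNAs, leaving out those with genes on both, 43 of 48 encoded on the X chromosome and 175 of 201 on autosomes were positive, and 17 and 92 with miRNAs scaled to each other.

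The 2 arms of a hairpin come from 1 precursor, so their ratio does not depend on scaling between libraries. For 25 hairpins both arms had 50 counts or more on average. The 5′ to 3′ ratio was higher in both AAE libraries for 8 hairpins (32%) and lower for 5 (20%), and the mean difference ran from -0.47 to 0.78 on the log2 scale with a median of 0.06. The largest difference was that of miR-30a. Its 5′ arm had 8233 and 10514 counts in AAE and 4911 and 3734 in control, and its 3′ arm 1138 and 1393 in AAE and 1226 and 809 in control. The log2 ratio was thus 2.85 and 2.92 in AAE and 2.00 and 2.21 in control. miR-871, X-linked and spermatogenic, had a log2 ratio of 1.04 and 0.712 against 0.271 and -0.0356. miR-30e had 1.08 and 0.934 against 0.379 and 0.498. The arms of miR-30a and miR-30e have nearly the same sequence, as printed above, so these hairpins may share reads and are not separate cases. For another miR-30 hairpin, miR-30d, the groups overlapped, at 6.13 and 6.20 in AAE and 5.95 and 6.21 in control. The ratio was lower for both miR-148 hairpins, with -9.03 and -9.14 in AAE and -8.81 and -8.61 in control for miR-148a. With 2 libraries per group no hairpin can reach an exact permutation p below 0.333.

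**Figure D3:**
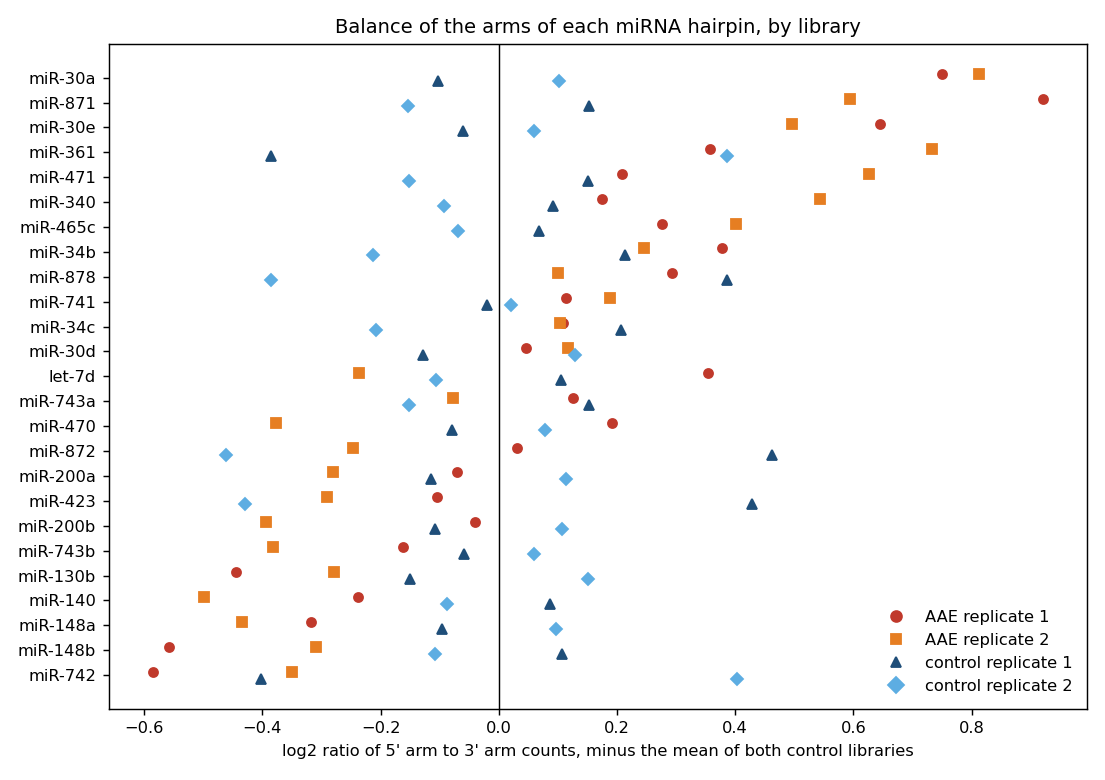
log2 ratio of 5′ arm to 3′ arm counts for 25 miRNA hairpins in each library, minus the mean of both control libraries; hairpins are ordered by the mean AAE difference. Both AAE points lie right of both control points for miR-30a, miR-871 and miR-30e at the top, and left of them for the miR-148 hairpins near the bottom.

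Small nucleolar RNAs had the highest median log2 fold change of the types, at 0.53, and 383 of 434 entries were positive. None passed the test, and with snoRNAs scaled to each other the median was -0.04. It was -0.28 without AAE replicate 1 and 1.02 without AAE replicate 2. The C/D box snoRNAs, which guide 2′-O-methylation, were the longest list: 216 of 224 were positive with a median of 0.58, and their summed counts were 591376 and 411686 in AAE and 302551 and 343306 in control. Without AAE replicate 1 their median was -0.21. The H/ACA box snoRNAs, which guide pseudouridylation, had 42 of 60 positive with a median of 0.25, and sums of 8195 and 7099 against 3815 and 5047. That list is not of 1 type, as it includes U17b, which is filed as a small nuclear RNA and described below. With each entry scaled within its own type the H/ACA median was -0.23 and 17 were positive. Without AAE replicate 1 it was -0.45. Thus the sign of both medians turned when AAE replicate 1 was left out.

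The most abundant snoRNA entries were predicted gene Gm26202, C/D box 83B and predicted gene Gm25091. Predicted gene Gm26202 had 61320 and 25825 counts in AAE and 36870 and 29078 in control, with the AAE libraries at both ends. C/D box 83B had 48035 and 30045 against 23765 and 24608, and predicted gene Gm25091 had 42173 and 33036 against 18905 and 21492, so raw counts of both were higher in each AAE library. Among snoRNAs with 50 or more counts the smallest unadjusted p belonged to predicted gene Gm24453, with 224 and 302 counts in AAE and 84 and 75 in control, a log2 fold change of 1.48 (SE 0.27). It stayed between 1.14 and 1.71 when each library was left out. Its adjusted p in edgeR's test was 0.943. H/ACA box 47 had 977 and 775 counts against 443 and 354, and the Cajal body RNA 10, which guides modification of spliceosomal RNA, 3242 and 2695 against 1515 and 1338. C/D box 52 had 61 and 68 against 25 and 28.

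U17, an H/ACA RNA needed for cleavage of the precursor of 18S rRNA, appeared under 3 entries that may share reads. U17b, filed as a small nuclear RNA, had 711 and 833 counts in AAE and 180 and 229 in control. U17a had 602 and 690 against 176 and 176. H/ACA box 73b, another name of a U17 copy, had 163 and 199 against 64 and 89. For all 3 both AAE libraries lay above both control libraries, and log2 fold changes were 1.69 (SE 0.43), 1.66 (SE 0.40) and 1.00 (SE 0.29). Leaving out each library in turn gave 1.23 to 2.00 for U17b. The adjusted p was 0.943 for each here, while the p-values of U17b and U17a in the authors' deposited table, 5.76e-06 and 8.62e-06, became 0.0439 and 0.0492 when adjusted here over that table by Benjamini-Hochberg. The smallest p of that table, 4.5e-10 (1.03e-05 adjusted in this way), belonged to a tRNA entry with no name. It had 79 and 2 counts in AAE and 4 and 3 in control, so only AAE replicate 1 was high. That entry did not pass the filter on low counts here.

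Among spliceosomal RNAs, U12 belongs to the minor spliceosome, which removes a rare class of introns. U12 had 2992 and 5132 counts in AAE and 1735 and 1737 in control, and the log2 fold change was 0.92 (SE 0.60, adjusted p = 0.948 in edgeR's test). The control libraries gave nearly equal counts, and AAE replicate 2 was higher than AAE replicate 1. Summed, the U11 and U12 entries took 0.915% and 1.58% of snRNA counts in AAE and 0.726% and 0.854% in control. U1, which recognises the 5′ splice site, had 10907 and 14139 counts against 6696 and 6426, with a log2 fold change of 0.69 (SE 0.72), and 14 of 17 U1 entries were positive. Summed, the U1 entries took 3.71% and 4.58% of snRNA counts in AAE and 3.09% and 4.11% in control, so the groups overlapped. U2, which binds the branch point, took 22.2% and 19.8% of snRNA counts in AAE and 23.7% and 23.1% in control, and 24 of its 33 entries were negative. As CPM of the whole library, however, the U2 sum was higher in AAE, at 9635 and 10173 against 8460 and 7298. By library totals the U2 median was -0.01. U7, which acts in histone mRNA processing, had 388 and 302 counts against 209 and 121, and predicted gene Gm24032 had 154 and 326 against 81 and 98. The most abundant entry, predicted gene Gm25939, had 41600 and 42689 against 33670 and 26410.

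**Figure D4:**
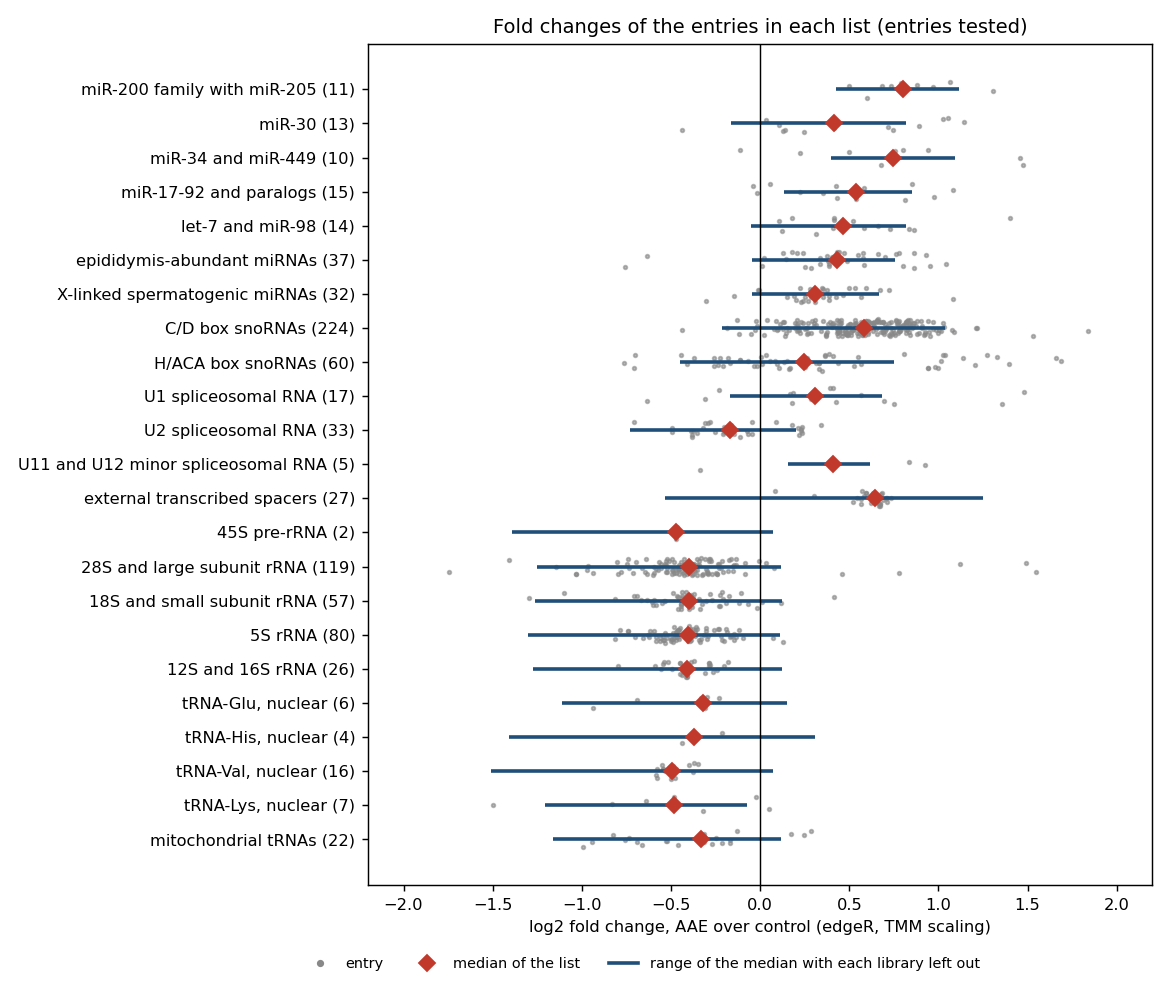
log2 fold changes, AAE over control, of the tested entries of each list (grey points), with the list's median (diamond) and the range of that median when each library is left out (blue line). The miRNA, C/D box and spacer lists have medians right of 0 and the rRNA and tRNA lists left of 0, while the lines stay on 1 side of 0 for the miR-200, miR-34, miR-17-92, U11 and U12, and tRNA-Lys lists and cross it for the others drawn.

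Entries of mature rRNA mostly had negative log2 fold changes, AAE over control, and those of the transcribed spacers positive ones, and 0 passed the test. Of 331 rRNA entries, 305 were negative, with a median log2 fold change of -0.40 that was -1.26 without AAE replicate 1 and 0.12 without AAE replicate 2. The median was -0.40 for 119 entries of 28S, -0.40 for 57 of 18S, -0.41 for 80 of 5S and -0.41 for 26 of the mitochondrial 12S and 16S. With rRNAs scaled to each other it lay between -0.03 and 0.02 for these 4 lists. The most abundant 28S entry had 139342 and 106924 counts in AAE and 176468 and 176145 in control, a log2 fold change of -0.64 (SE 1.02). The external transcribed spacers, which are cut from the 45S precursor and not part of ribosomes, had the opposite sign: all 27 entries were positive, with a median of 0.65, and the 2 entries of the whole 45S precursor had -0.47. After TMM scaling the AAE and control libraries overlapped for all 27. By library totals 26 were higher in both AAE libraries, as were 13.3% of all entries, whose median in that scaling was 0.35. Summed counts of the spacer entries were 45490 and 27392 in AAE and 24027 and 21612 in control, and the CPM sum was 1.57 times that of control. These entries cover the same spacers and may share reads. Without AAE replicate 1 their median was -0.53, and the medians of the 4 mature rRNA lists above lay between -1.25 and -1.30. One entry named partial ribosomal RNA, with 602 and 413 counts in AAE and 206 and 48 in control, had a log2 fold change of 1.94 (SE 0.75, adjusted p = 0.943), and its p in the authors' deposited table, 2.79e-07, became 0.00319 when adjusted here over that table by Benjamini-Hochberg.

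In tRNA fragments the control libraries often lay on both sides of the AAE libraries. Entries with no name held 54.5% and 56.6% of tRNA counts in AAE and 49.5% and 54.3% in control. Isotype values here therefore cover named entries only, and their order could differ if all entries had names. The largest isotype among named entries was tRNA-Glu, whose 5′ fragments abound in mature sperm. It had 1376914 and 1043841 summed counts in AAE and 1002349 and 1578210 in control. This was 17.2% and 17.7% of tRNA counts in AAE and 13.3% and 22.0% in control. tRNA-His took 7.75% and 6.90% in AAE and 12.6% and 4.63% in control. An entry named mitochondrially encoded tRNA histidine had 336552 and 217816 counts against 504235 and 174213, close to the counts of a tRNA-His entry in each library, so both may hold the same reads. For 7 of 19 isotypes both AAE values lay between the control values. For 3 isotypes the AAE shares were higher and for 3 lower. The lower ones were tRNA-Val (7.61% and 6.52% against 9.29% and 8.57%), tRNA-Cys (0.156% and 0.136% against 0.255% and 0.166%) and tRNA-Gly. The higher ones were tRNA-Met (0.293% and 0.368% against 0.285% and 0.216%), tRNA-Phe and tRNA-Tyr. Of 16 tRNA-Val entries 0 had a positive log2 fold change, with a median of -0.49. The median of the 499 tRNA entries tested was -0.23, with 120 positive, and it was -1.08 without AAE replicate 1 and 0.29 without AAE replicate 2.

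More tRNA entries had at least 1 count in AAE, 3353 and 3375 against 2915 and 2942 in control. With 1 entry kept of each set with equal counts, the numbers were 1178 and 1185 against 1145 and 1141, and entries with 10 counts or more numbered 508 and 487 against 509 and 484.

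**Figure D5:**
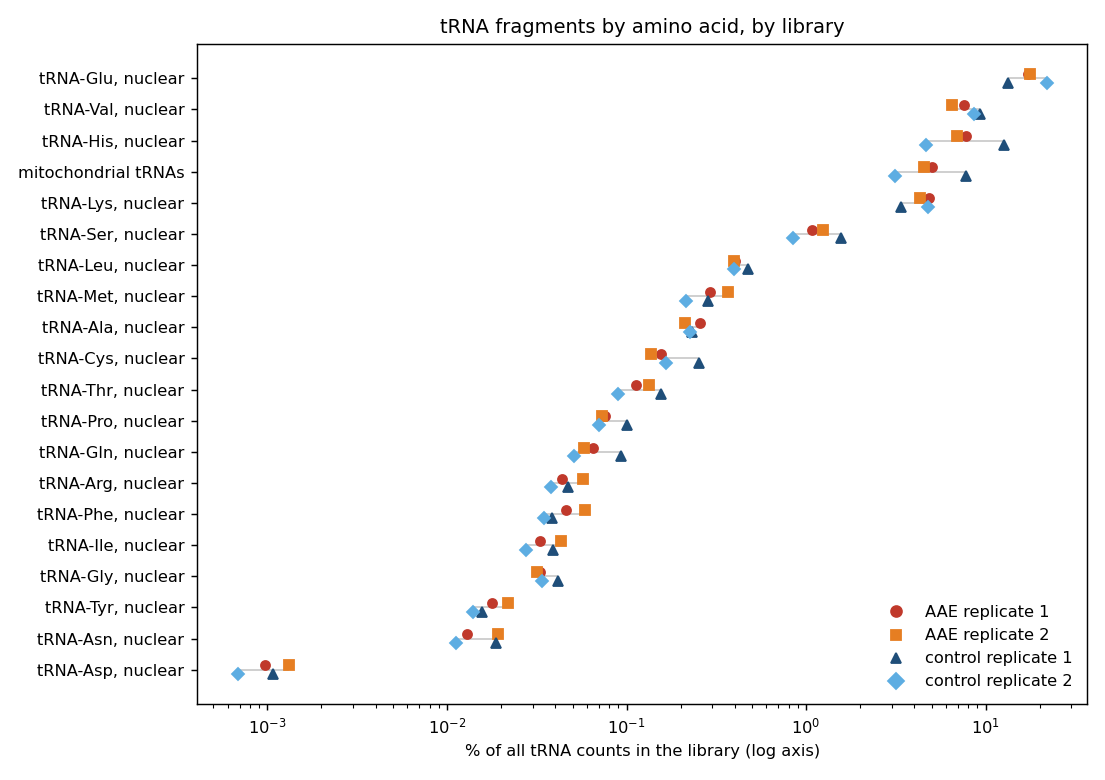
Percent of tRNA counts (log axis) for named entries of each nuclear tRNA isotype and for mitochondrial tRNAs, by library. For tRNA-Glu, tRNA-His and mitochondrial tRNAs the control libraries lie at both ends of the row with both AAE libraries between them.

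The piRNAs, with 18580 entries tested, had a median log2 fold change of -0.01, with 9097 positive. Their most abundant entry, oocyte_piRNA905, had 745904 and 513532 counts in AAE and 587869 and 841202 in control, with overlapping groups. The oocyte_piRNA entries together took 64.9% and 42.5% of piRNA counts in AAE and 55.6% and 62.6% in control, so AAE replicate 2 was the lowest. The abundant piR-119222 had 20557 and 23758 counts against 10492 and 15198. By unadjusted p the first entries were piR-100143, with 32 and 78 counts against 14 and 11, and piR-130593, with 52 and 83 against 131 and 114. Their log2 fold changes were 1.78 (SE 0.32) and -1.15 (SE 0.22).

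With each RNA type scaled and fitted on its own, 43 entries passed an adjusted p of 0.05 (0.205% of 21008), of which 39 were piRNAs (16 higher, 23 lower), 3 partial rRNAs and 1 an entry of no other type, partial Mus_sgms1_6, with 70 and 44 counts in AAE and 70 and 61 in control. That last entry was called higher in this scaling, with a log2 fold change of 0.77, against -0.36 in the fit of all types together. piR-124229, with 84 and 104 counts in AAE and 211 and 148 in control, had the smallest adjusted p, 8.00e-06 in this edgeR fit. Its log2 fold change was -1.18, and -1.17 in the fit of all types together (adjusted p = 0.943). The size was nearly the same in both fits and the adjusted p was not. piR-1743 had 261 and 617 counts against 116 and 203, and piR-137063, which fell in this fit, 72 and 116 against 156 and 126. The called entries with the most counts, named here after their values were seen, were oocyte_piRNA215 with 2631 and 4648 against 1252 and 1223 and oocyte_piRNA659 with 1731 and 1925 against 645 and 863. Of the 39 piRNAs, 14 were higher and 15 lower in both AAE libraries by library totals, against 13.3% and 2.73% of all entries. They were picked for differing between these same libraries, so this separation adds no support.

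The miscellaneous type held clustered small RNAs named for oocytes, germline small RNAs, vault RNAs and antisense transcripts. The most abundant, oocyte_clustered_small_RNA14236, had 71370 and 67926 counts in AAE and 70715 and 33660 in control, so 1 control library was as high as AAE. oocyte_clustered_small_RNA11414 had 260 and 381 against 181 and 119, and predicted gene Gm24372 had 313 and 419 against 172 and 171. The vault RNA component 5, of a large cytoplasmic particle, had 845 and 590 counts against 323 and 1165, with the control libraries at both ends. Antisense RNAs of the genes for protamines, which pack sperm DNA, were negative in 4 of 4 entries, with a median of -0.28 that was 0.06 by library totals. The a form had 69 and 123 counts against 105 and 86, and germline small RNA gsRNA43 694 and 1377 against 1035 and 953. A single entry named non-coding RNA held most of the remaining counts, with 16013 and 9839 in AAE and 26390 and 23991 in control, a log2 fold change of -1.04 (SE 0.86).

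No single RNA passed the test of all types together. edgeR's quasi-likelihood test called 0 of the 21008 RNAs (0%) after adjustment, the smallest adjusted p being 0.943. Before adjustment, 558 RNAs were higher (2.66%) and 493 lower (2.35%) at p below 0.05, 5% in all, and DESeq2 gave 0 calls and 121 RNAs at that level. Among the 1051 of edgeR, miRNAs gave 36 higher and 3 lower, snoRNAs 39 and 0, snRNAs 16 and 5, tRNAs 1 and 12, and rRNAs 4 and 6. In simulated counts of this size the test recovered 19.4% of RNAs changed by 1 on the log2 scale. It recovered 92.5% of those changed by 2 and 98.5% of those changed by 3, with 7 false calls. All simulated RNAs had 1 common dispersion, and replicates did not differ in the makeup of RNA types as these libraries do. The rates therefore do not hold for entries that vary more, and a partial ribosomal RNA entry at 1.94 did not pass here. With no filter on low counts 19 of 69575 entries were called (0.0273%). With 1 library left out the calls were 371 without AAE replicate 1 (1.39%; 30 higher, 341 lower), 149 without AAE replicate 2 (0.67%; 142 higher, 7 lower), 7 without control replicate 1 (0.0266%) and 0 without control replicate 2. Without AAE replicate 2 the calls were 71 snoRNAs, 25 snRNAs, 20 miRNAs and others. Without AAE replicate 1 they included 108 tRNAs, 98 rRNAs and 116 piRNAs.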

How the data were processed

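The deposited files hold raw counts of reads per RNA entry, with no normalization by the authors. Per the submitters' processing notes, the tools were Bowtie, Bowtie2, FastQC and edgeR, with mm9 as the build and no role or version given, and treatment of reads matching several entries is not given in the sources used here. Entries missing from a library were taken as 0. Names, and the log2 fold changes and p-values quoted as such, come from the authors' deposited table, whose 4 columns of per-sample values were not used; 309 tRNA entries have no name there.

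Counts were fitted with edgeR 4.0.16 (TMM, filterByExpr, robust quasi-likelihood, two-sided, Benjamini-Hochberg at 0.05) in R 4.3.3, and with DESeq2 1.42.0. Fold changes are on the log2 scale. Type shares were compared by exact permutation. Counts give no interval of their own here, as the spread between libraries is larger. Other choices were size factors, library totals, scaling within each type, other filters, a replicate block and leaving out each library; collapsing entries within 5% was chosen after seeing the data. Named RNAs are, per type, the 3 most abundant and the 3 with the smallest p, plus up to 4 per list; fewer are printed, a choice made with their values known. Members and lists were chosen with earlier results of these data known. Whether replicates came from separate animals is not stated, so p-values measure the spread between these libraries, which may be technical. The test was checked on simulated data in which all RNAs had 1 common dispersion and changed RNAs had a mean of 50 counts or more. Figures used matplotlib 3.10.9, tables pandas 2.3.3, NumPy 2.4.6 and SciPy 1.17.1 under Python 3.11.15.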

Additional observations from a re-analysis of the deposited data

How the results depend on the processing

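The count of called RNAs, 0, stayed at 0 with DESeq2 size factors, library totals, a mean of 50 counts or more, DESeq2 and the replicate block, and was 43 with scaling within each type, 19 with no filter on low counts (0.0273% of 69575, 17 higher) and 0 to 371 with each library left out. Such fits hold a group of 1 library, assumed to vary like the other group. The cause was not tested. The replicate block gave 1490 RNAs at an unadjusted p under 0.05 (smallest adjusted p = 0.0729); same-numbered libraries deviated together with a correlation of 0.104 over only 2 pairs, and the labels give no pairing. Among the shares of the 8 types drawn, that of piRNA turned, with a log2 ratio from -0.12 to 0.28 with each library left out. Median log2 fold changes changed sign with some library left out for 7 of 8 types and 47 of 65 lists, with scaling within each type for 5 and 20, and by library totals for 1 and 9. Of the single RNAs recomputed under every alternative, these turned. With scaling within each type, miR-881-3p was -0.27, Gm26202 -0.39, C/D box 83B -0.051 and partial Mus_sgms1_6 0.77. By library totals, germline small RNA gsRNA43 was 0.11 and A-Prm(1-2)-a antisense RNA 0.048. With each library left out, ranges were -1.11 to 0.29 for tRNA-Glu, -1.28 to 0.26 for oocyte_piRNA905, -1.39 to 0.49 for mitochondrially encoded tRNA histidine, -0.44 to 0.68 for miR-881-3p, -0.38 to 0.78 for oocyte_clustered_small_RNA14236, -1.13 to 1.12 for Gm26202, -0.27 to 0.70 for Gm25939, -0.48 to 1.20 for C/D box 83B, -0.085 to 1.27 for Gm25091, -1.36 to 0.32 for partial Mus_sgms1_6 and -1.17 to 1.10 for vault RNA component 5. Of the values for lists and single RNAs under the alternatives, 1068 counted as unchanged. Single RNAs in this number kept their sign and side of the threshold, and list medians moved by less than the spread. List medians were judged here by size and not by sign, and 141 moved by more. Among single-RNA values, 37 newly passed the threshold and 23 turned. The libraries held 12810223 to 15356820 counts. Depth was not varied, and changes in RNAs with a mean under 50 counts were not simulated.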
